A study of Mus musculus with 4 samples.

Results

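Dnmt3a, Tet2, Sox4, Npm1 and Myc, 5 genes with established roles in acute myeloid leukaemia, were followed in an H3K9ac chromatin immunoprecipitation sequencing (ChIP-seq) experiment on leukaemic mouse bone marrow. They were taken by gene name from the deposited table, and all 5 of 5 are among its 9615 genes. The group called tg carried floxed Gfi1b on both alleles, the NUP98-HOXD13 transgene and Mx-Cre. The group called WT carried the same floxed Gfi1b and NUP98-HOXD13 but no Mx-Cre, so its cells are leukaemic and not wild type in the usual sense. Each genotype had 1 H3K9ac library and 1 rabbit IgG library, 4 samples in all. Mx-Cre is driven by an interferon-inducible promoter and acts in many cells that respond to interferon. The labels name no inducer, age or number of pooled animals, and erythrocytes were lysed before fixation. Gfi1b itself held 108 reads in the library labelled tg and 12 in the library labelled WT over 4 probes, 17.0-fold higher (9.36 to 34.0), which is opposite to a loss of signal; because probe positions are not given, it is unknown whether any lies in the deleted part, and the table does not check the deletion. The names tg and WT are therefore used as the labels give them. The IgG libraries have no column in the table and were not analysed here.

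H3K9ac is the acetylation of lysine 9 on histone H3, a mark of active promoters and enhancers. DNMT3A adds methyl groups to unmethylated cytosine, and TET2 oxidises methylcytosine as a step towards removing it, so these enzymes act on opposite sides of the DNA methylation cycle. Both genes are recurrently mutated in clonal haematopoiesis and myeloid leukaemia. SOX4 is a transcription factor with an HMG box that promotes leukaemia in mouse models, in particular where C/EBP alpha is lost. NPM1 is a nucleolar histone and ribosome chaperone that shuttles to the cytoplasm, and MYC is the transcription factor that pairs with MAX at E-boxes and drives growth and ribosome production.

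Promoter sequences are shown for the 3 genes with a matched window, which are also the 3 with lower H3K9ac in tg. They differ in base composition. No window was matched for Npm1 or Myc, so the sequences cannot be compared with those of the other genes. RefSeq promoter windows (GRCm38.p6, 250 bases before to 50 after a start) were matched for 3 of the 5 genes, Dnmt3a with 3 windows and Tet2 and Sox4 with 1 each. Dnmt3a has a start at the head of the long transcript and another 84.8 kb further in, which gives a shorter isoform. The windows printed are chr12:3806730-3807029 and chr12:3891494-3891793 on the plus strand for Dnmt3a, chr3:133544341-133544640 on the minus strand for Tet2 and chr13:28953650-28953949 on the minus strand for Sox4, each written 5′ to 3′ on the gene's strand. Capitals mark the E-box CACGTG in the inner Dnmt3a window, a 20-base repeat in the Tet2 window, and the words AATCTC and CCAAT, on either strand, in the Sox4 window.
Dnmt3a, outer start: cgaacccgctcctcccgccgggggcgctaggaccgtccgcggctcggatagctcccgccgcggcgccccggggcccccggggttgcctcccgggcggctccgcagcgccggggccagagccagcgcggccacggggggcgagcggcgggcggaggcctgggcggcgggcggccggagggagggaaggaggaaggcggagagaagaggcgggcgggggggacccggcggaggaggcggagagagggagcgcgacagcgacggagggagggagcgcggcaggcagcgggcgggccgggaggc
Dnmt3a, inner start: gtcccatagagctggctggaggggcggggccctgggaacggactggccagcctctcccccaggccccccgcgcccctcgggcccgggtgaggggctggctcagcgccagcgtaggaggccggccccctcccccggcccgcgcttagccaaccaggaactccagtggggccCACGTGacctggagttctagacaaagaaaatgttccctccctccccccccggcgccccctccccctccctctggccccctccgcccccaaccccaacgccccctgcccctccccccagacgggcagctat
Tet2: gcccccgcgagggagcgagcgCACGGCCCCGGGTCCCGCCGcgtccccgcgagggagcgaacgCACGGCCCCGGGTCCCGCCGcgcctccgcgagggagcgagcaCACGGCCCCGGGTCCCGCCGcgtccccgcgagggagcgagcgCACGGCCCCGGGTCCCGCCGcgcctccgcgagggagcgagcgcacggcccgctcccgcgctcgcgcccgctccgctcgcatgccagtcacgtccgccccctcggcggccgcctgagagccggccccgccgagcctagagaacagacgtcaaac
Sox4: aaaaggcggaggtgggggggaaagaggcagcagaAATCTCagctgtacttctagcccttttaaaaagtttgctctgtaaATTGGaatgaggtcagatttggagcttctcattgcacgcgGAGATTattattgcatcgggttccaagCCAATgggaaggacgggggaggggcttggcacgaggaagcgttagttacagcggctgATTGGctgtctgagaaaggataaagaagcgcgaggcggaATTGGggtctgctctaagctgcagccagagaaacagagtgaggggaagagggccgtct

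Tet2 held 57 CpG dinucleotides in its 300 bases, above 99.8% of the 32851 RefSeq windows, whose median was 7. The outer Dnmt3a window held 46 CpG at 82.3% G and C, and the inner window 18 CpG at 74%. The Sox4 window was unlike these, with 12 CpG and 52% G and C, close to the median of 52.7% over all windows. The Tet2 window contains a repeat: the 20 bases in capitals occur 4 times, 42 bases apart each time. Both strands were searched for short words that known factors read. The E-box of MYC and MAX was searched as CACGTG. Erythroid GATA factors were searched as AGATAA and also as TGATAA. The core of GFI1 and GFI1B was searched as AATCAC and also as AATCTC. The word of ETS factors was GGAAGT, the box of NF-Y was CCAAT, and the box of TBP was TATAAA. No matches overlapped. The inner Dnmt3a window held 1 CACGTG, the E-box word that MYC and MAX can read, at position -80 from the start; 7.15% of all windows hold it. The Sox4 window held AATCTC, which contains the AATC core read by GFI1 proteins, at position -216, and on the other strand at position -131; 11.6% of all windows hold this word. It also held CCAAT, on either strand, at positions -171, -104, -47 and -8, and 37.4% of all windows hold CCAAT. None of the searched words was found in the Tet2 window or in the outer Dnmt3a windows. These matches describe letters only, and the table gives no probe positions, so the reads reported next cannot be placed at these windows.

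Levels are given as reads counted at a gene's probes, the regions the authors counted over, and as scaled reads. Scaled reads are reads divided by a total per library and set to a total of 1000000. The totals were worked out from the values, as 163712 reads in tg and 309649 in WT. Which reads they cover is not stated, so they need not be all reads of a library. By these totals 1 read is worth 6.11 scaled reads in tg and 3.23 in WT. The ranges beside single levels are exact 95% Poisson intervals, and those beside folds are exact conditional binomial (Clopper-Pearson) 95% intervals. The intervals cover counting error only and leave out variation between animals and libraries. The reads carry no molecular identifiers, so copies of 1 molecule cannot be recognised. Any copies that were counted would make the intervals too narrow. With 1 library per genotype there is no replicate and no test between genotypes, and "higher" and "lower" describe these libraries.

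Both enzymes of the DNA methylation cycle carried less H3K9ac in the tg library. Dnmt3a (ENSMUSG00000020661, chromosome 12, 3806007 to 3914443, GRCm38) has 2 probes. They held 1 and 3 reads in tg, against 13 and 29 reads in WT. Summed over the probes, this made 24.4 scaled reads in tg (6.66 to 62.6) and 136 in WT (97.8 to 183), ranges that do not overlap. Dnmt3a was 5.55-fold lower in tg by summed reads (2.01 to 21.3), with a deposited log2 ratio of -2.57. Which tg probe corresponds to which WT probe is not given. Ranked within each library, the weaker probe was 6.87-fold lower in tg (1.03 to 292) and the stronger 5.11-fold lower (1.58 to 26.2). These intervals treat the ranked probes as fixed regions, so they hold only roughly. By the counts, both probes were lower in tg whichever way they are paired. By its deposited log2 value, 287 of 9615 genes lay below Dnmt3a in tg, whereas in WT it stood at percentile 52.1 of all genes. Percentiles of level compare probes whose widths are not given, and are read here only within a gene, from library to library.

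Tet2 (ENSMUSG00000040943, chromosome 3, 133463679 to 133544390) has 1 probe, with 15 reads in tg and 104 in WT. The scaled level was 91.6 in tg (51.3 to 151) and 336 in WT (274 to 407), again without overlap. Tet2 was 3.67-fold lower in tg (2.12 to 6.78), a log2 ratio of -1.87. It stood at percentile 66.8 of all genes in tg and 98.3 in WT, where 161 genes were above it. The reads at Dnmt3a are few, and its interval spans that of Tet2, so their folds cannot be ranked.

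Sox4, a gene without introns (ENSMUSG00000076431, chromosome 13, 28948919 to 28953713), had the highest WT count of the 5 genes. Its single probe held 22 reads in tg and 160 in WT. The scaled level was 134 in tg (84.2 to 203) and 517 in WT (440 to 603), and the ranges are well apart. Sox4 was 3.85-fold lower in tg (2.45 to 6.31; log2 ratio -1.94). In WT 31 of 9615 genes had a higher log2 value, a percentile of 99.7, while in tg Sox4 was at percentile 83.3. Its H3K9ac was lower in tg but not absent there.

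Npm1 was the member with more H3K9ac in tg, and the difference was larger between the weaker probes of the libraries than between the stronger ones. Which tg probe corresponds to which WT probe is not given, so the weaker probe need not be the same in both. Npm1 (ENSMUSG00000057113, chromosome 11, 33152287 to 33163206) has 2 probes, with 12 and 15 reads in tg and 4 and 19 reads in WT. The summed level was 165 scaled reads in tg (109 to 240) and 74.3 in WT (47.1 to 111), ranges that overlap slightly. The summed fold was 2.22-fold higher in tg (1.23 to 4.05) and the deposited log2 ratio 1.54. The next intervals treat probes ranked within each library as fixed regions, so they hold only roughly. By rank, the weaker probe was 5.67-fold higher in tg (1.72 to 24.1). The stronger was 1.49-fold higher, with an interval that includes 1 (0.706 to 3.10). The probes were thus nearly alike in tg (SD of log2 values 0.23) and unlike in WT (1.59); the median SD over the 1572 genes with 2 probes was 0.81 in tg and 1.06 in WT. NPM1 has processed pseudogene copies in mammalian genomes, and the sources used here do not give how reads that map to several places were counted.

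Myc (ENSMUSG00000022346, chromosome 15, 61985391 to 61990374) could not be told from equal acetylation at this depth. Its probe held 33 reads in tg and 41 in WT, which is 202 scaled reads in tg (139 to 283) and 132 in WT (95.02 to 180). These ranges overlap. The fold was 1.52 in favour of tg (0.933 to 2.47; log2 ratio 0.61). By level Myc stood at percentile 93.9 of all genes in tg and 83.3 in WT.

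**Figure D1:**
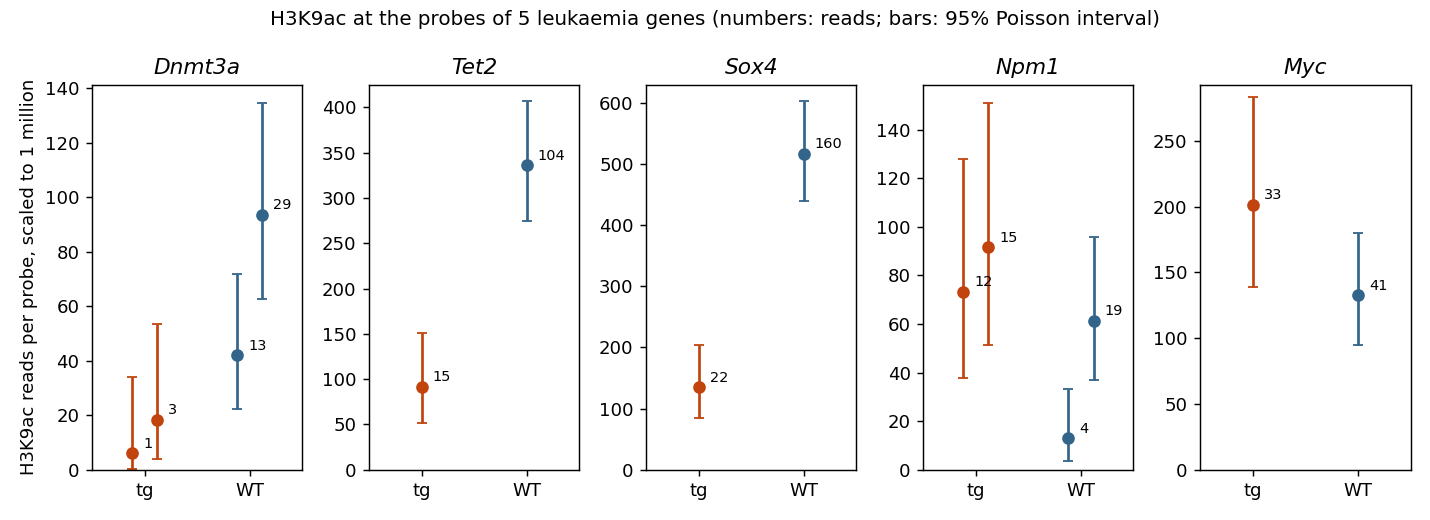
H3K9ac at each probe of Dnmt3a, Tet2, Sox4, Npm1 and Myc in the tg library (red, left) and the WT library (blue, right), in scaled reads. Vertical axes start at 0 and differ between panels; numbers beside the points are reads, and bars are 95% Poisson intervals. The tg points lie below the WT points for Dnmt3a, Tet2 and Sox4; the WT probes of Npm1, with 4 and 19 reads, are further apart than its tg probes, with 12 and 15.

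By the deposited log2 values, a difference of 2-fold or more was met by 3 of the 5 genes towards lower and by 1 towards higher signal in tg. The shares of all 9615 genes were 15.8% lower and 16.5% higher by this rule, and the median log2 ratio was 0.05, against -1.87 for the 5 genes. Counting intervals gave the same split: they lay below 1 for Dnmt3a, Tet2 and Sox4, above 1 for Npm1 and included 1 for Myc. Among the 9492 genes with recovered reads, the interval lay below 1 for 12.7% and above 1 for 12.8%. Differences this large are less frequent among well covered genes. Tet2, Sox4 and Myc belong to the 2406 genes with the highest mean level, where 8.6% were lower and 5.65% higher in tg by that rule. The 5 genes were chosen by name, with earlier results of these data known. These counts therefore describe the genes only, and no test was made on them.

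Among the members, the folds fell into a low and a high set. Each of the 10 pairs of genes was compared by the ratio of their tg over WT folds, with a conditional 95% interval for counting error, not adjusted over the pairs. The interval lay above 1 for 6 pairs, namely Npm1 or Myc against Dnmt3a, Tet2 or Sox4. Myc over Sox4 was 5.80 (2.94 to 11.7) and Npm1 over Tet2 8.01 (3.50 to 19.1). The interval included 1 for the other 4 pairs: Tet2 over Sox4 was 1.05 (0.482 to 2.23), Sox4 over Dnmt3a 1.44 (0.454 to 6.07), Tet2 over Dnmt3a 1.51 (0.446 to 6.62) and Npm1 over Myc 1.45 (0.667 to 3.19). Neighbours in the order within each set therefore cannot be ranked.

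**Figure D2:**
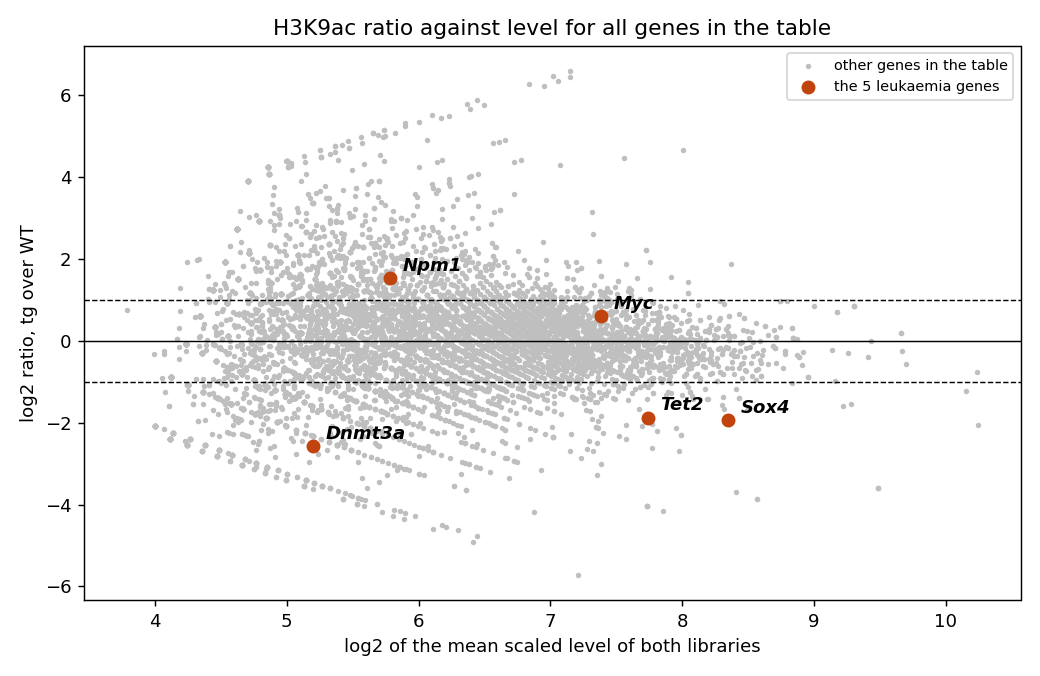
Log2 ratio of H3K9ac, tg over WT, against the log2 of the mean scaled level of both libraries for the 9615 genes of the table, the 5 leukaemia genes in red and the others in grey; dashed lines mark 2-fold. Tet2 and Sox4 lie towards the right, where more reads were counted, at ratios of -1.87 and -1.94, while Dnmt3a lies at -2.57 and Npm1 at 1.54 where the spread is wider.

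Among the other genes of the DNA methylation cycle, ratios lay in both directions. Of 26 listed genes, 21 were in the table, and 4 were higher and 5 lower in tg by 2-fold or more, with a median log2 ratio of -0.08. Dnmt3a and Tet2 were the lowest and the next lowest of the 21; without them 4 of 19 were higher and 3 lower, the lower ones being Idh2, Cxxc5 and Mbd3. The maintenance methyltransferase gene Dnmt1 had 28 reads in tg and 41 in WT, a ratio of 1.29 whose interval includes 1 (0.769 to 2.14). Dnmt3b, which encodes the other de novo methyltransferase, held 4 reads in tg and 7 in WT (1.08, 0.232 to 4.25). Mbd3, a subunit gene of the NuRD repressor complex, was 2.24-fold lower in tg on 13 reads in tg and 55 in WT (1.21 to 4.46). Gadd45g, a stress gene linked to DNA demethylation, was 2.92-fold higher on 17 reads in tg and 11 in WT (1.29 to 6.90), and Ogt, whose product binds TET proteins, had a summed fold of 1.94 (1.24 to 3.02). Idh2, whose enzyme makes the 2-oxoglutarate that TET2 needs, is named after its values were seen: it held 3 reads in tg and 18 in WT, and its interval includes 1 (3.17-fold lower, 0.926 to 16.8).

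SOX genes were sparsely represented, with Sox4, Sox5 and Sox6 in the table of 17 listed. In the list of SOX genes and partners of SOX4, 13 of 29 genes were in the table, 6 higher and 2 lower by 2-fold or more (median 0.02), and Sox4 had the next to lowest ratio. The lowest was Cebpa, the granulocytic factor gene, with 1 read in tg and 15 in WT. At the other end was Sox6, a factor of definitive erythropoiesis, which is named after its values were seen: its 4 probes held 56 reads in tg and 4 in WT, 26.5-fold higher (9.78 to 101). By the naming rule, Tcf3, an E-protein gene, had a log2 ratio of 1.32 but a summed fold of 1.54 whose interval includes 1 (0.928 to 2.55), and Creb1 was 1.59-fold lower (1.11 to 2.31).

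In the nucleolar list around Npm1, 28 of 34 genes were in the table, 5 higher and 1 lower in tg by the same rule, with a median of 0.23. Npm1 had the highest deposited log2 ratio of the 28, but not the highest summed fold. By summed reads Nhp2 (2.84-fold), Nop56 (2.76-fold) and Taf1b (2.65-fold) lay above Npm1 (2.22-fold), though the intervals of Nhp2 and Taf1b include 1. Its paralogue Npm3 held 8 reads in tg and 11 in WT (1.38, 0.480 to 3.75). Nop56, of the box C/D ribonucleoproteins that methylate ribosomal RNA, was 2.76-fold higher on 19 reads in tg and 13 in WT (1.30 to 6.09), and the rRNA methyltransferase gene Nop2 1.99-fold (1.01 to 3.94). The nucleolin gene Ncl and the helicase gene Ddx21 had log2 ratios of -0.97 and -0.94, with intervals that include 1.

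For the network of MYC and MAX, 26 of 32 genes were in the table, 4 higher and 4 lower by 2-fold or more (median -0.09), and Myc ranked the 8th highest. Max, the gene of the obligate partner, held 24 reads in tg and 33 in WT (1.38, 0.778 to 2.40). Pim1, whose kinase cooperates with MYC in lymphoma, stood out with a log2 ratio of 3.16. Its 2 probes held 196 reads in tg and 110 in WT, a summed fold of 3.37 (2.65 to 4.30). Usp28, a deubiquitinase gene that stabilises MYC, was 2.36-fold higher (1.03 to 5.53). Kat5, an acetyltransferase cofactor gene, had 10 reads in tg and 38 in WT (2.01-fold lower, 0.982 to 4.52), and Cip2a, listed under an older name, a log2 ratio of 2.12 but a summed fold of 1.07 (0.745 to 1.53). Among textbook MYC target genes, Npm1 included, 30 of 38 were in the table, 5 higher and 2 lower by 2-fold (median 0.20). By the naming rule these included Nop56, given above, and Rrp9, a ribosomal RNA processing gene, with 14 reads in tg and 12 in WT (2.21-fold higher, 0.947 to 5.22). On the lower side, Hspd1, a mitochondrial chaperonin gene, was 2.44-fold lower (1.54 to 4.01), and the translation factor gene Eif4a1 2.29-fold lower (1.29 to 4.33).

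Among genes recurrently altered in human myeloid malignancy, 41 of 45 were in the table, 3 higher and 13 lower in tg by 2-fold or more (median -0.14). Leaving out the 4 of the 5 genes that stand on this list, 2 of 37 were higher and 11 lower. Over all 9615 genes, 16.5% were higher and 15.8% lower by this rule. Of the 38 listed genes with recovered reads, the counting interval lay above 1 for 3 and below 1 for 7, not all past 2-fold. Some of the lower genes rest on few reads, such as Csf3r with 2 in tg and 12 in WT. Entry to the table can thus weigh on this list count too. Dnmt3a and Tet2 had the second and the third lowest ratio of the 41, after Cebpa, and Npm1 the second highest, after Trp53. Flt3, named after its values were seen, came next to Tet2 with 11 reads in tg and 76 in WT. It was 3.65-fold lower in tg (1.93 to 7.63), close to the fold of Tet2. Trp53, the p53 gene, was 2.58-fold higher on 45 reads in tg and 33 in WT (1.61 to 4.17), and Kdm6a, a histone H3K27 demethylase gene, 1.91-fold (1.40 to 2.61). Cbl, a ubiquitin ligase gene, was 2.22-fold lower (1.10 to 4.96), and the splicing factor gene Sf3b1 had 32 reads in tg and 109 in WT (log2 ratio -0.85, with an interval on the lower side of equality). Near equality were the polycomb gene Ezh2 with 56 reads in tg and 109 in WT (0.972, 0.691 to 1.35) and Asxl1 with 35 reads in tg and 66 in WT (1.00, 0.646 to 1.53). These 2 were chosen after their values were seen.

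**Figure D3:**
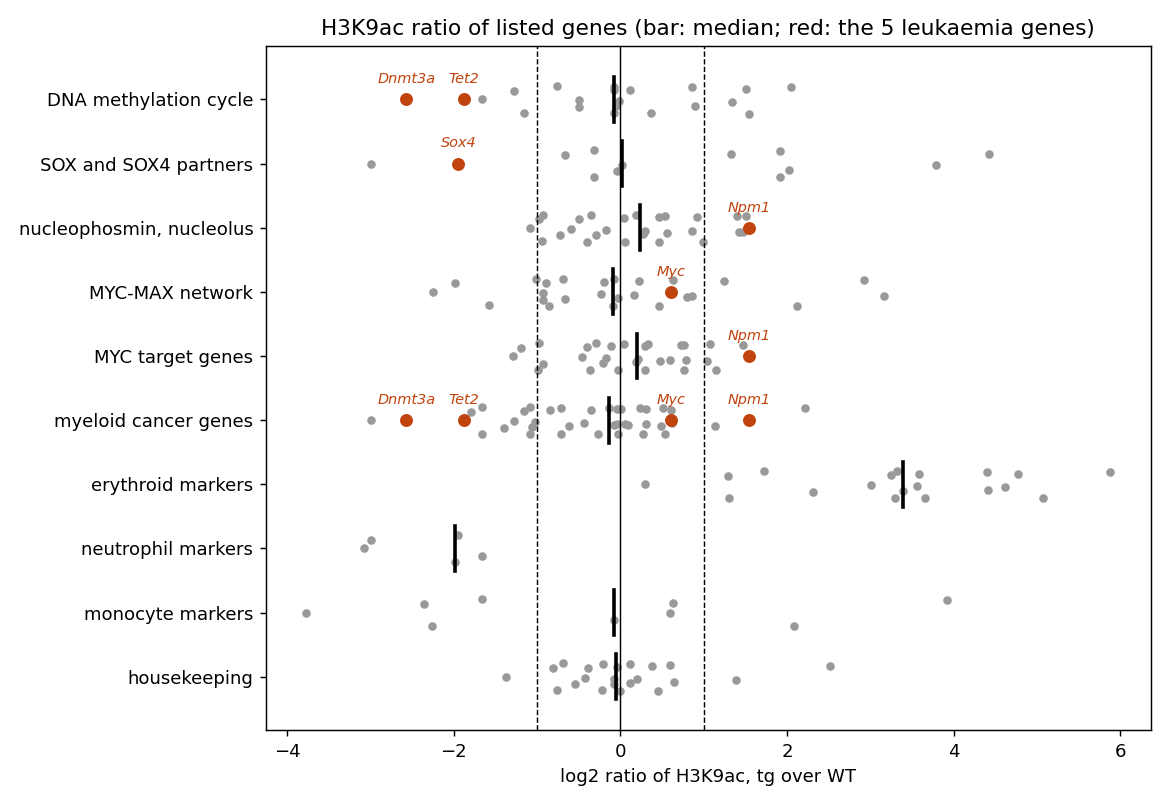
Log2 ratios of H3K9ac, tg over WT, for the genes of 10 lists that are in the table (grey points), with the list median as a black bar and the 5 leukaemia genes in red wherever a list holds them; dashed lines mark 2-fold. Dnmt3a and Tet2 lie at the low end of the DNA methylation list, whose median is -0.08, and Npm1 at the high end of the nucleolar list; the erythroid list is centred at 3.40 and the neutrophil list at -1.99.

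Markers of blood lineages differed between the libraries alongside these genes. Of 18 genes of haematopoietic identity, 17 were in the table, 3 higher and 8 lower in tg (median -0.48), and none of 14 non-haematopoietic markers was. The higher 3 were Gfi1b and the erythroid and stem cell factor genes Tal1 and Lmo2, with log2 ratios of 3.84, 3.59 and 3.08. By the naming rule, Fli1, an ETS factor gene, held 10 reads in tg and 99 in WT, and Sfpi1, the gene of the myeloid factor PU.1, 12 reads in tg and 118 in WT. Among genes named after their values were seen, the progenitor gene Cd34 held 0 reads in tg and 13 in WT, Kit 6 in tg and 24 in WT, and Ptprc, the pan-leukocyte CD45 gene, 7 in tg and 84 in WT. The intervals of Cd34 and Ptprc lay below 1, while that of Kit includes 1 (0.473, 0.158 to 1.19). Other genes of this list, also named afterwards, were nearer equality. Gata2 had a ratio of 1.22 (0.682 to 2.15), Lyl1 0.958 (0.638 to 1.42) and Runx1 a log2 ratio of -0.05. Of 27 erythroid markers 19 were in the table, 18 of them past 2-fold towards tg and 0 towards WT (median 3.40), with 4251 scaled reads in tg and 1021 in WT over the 17 genes with recovered reads. Only 5 of 20 neutrophil markers were in the table, all 5 past 2-fold towards lower signal in tg (median -1.99). They held 9 reads in tg and 97 in WT (55.0 and 313 scaled reads), so they were in the table mainly through WT. The counting interval lay below 1 for 3 of the 5. Conversely, the erythroid genes Epor, Rhag, Hbb-b1 and Alas2 held 0 reads in WT and were in the table through tg. Genes with few reads in both libraries are absent, so the direction of these list counts depends in part on entry to the table. Of 15 monocyte markers, 9 were in the table, 2 higher and 4 lower (median -0.08), with 593 scaled reads in tg and 2157 in WT. Irf8 alone held 29 reads in tg and 407 in WT, of 97 in tg and 668 in WT for the list. The higher 2, Emilin2 and Csf1r, held 16 and 9 reads in tg, against 2 and 4 in WT. Only 3 of 18 lymphoid markers were in the table, none past 2-fold. In bulk marrow, fewer cells with the mark and less of the mark per cell cannot be told apart, and the part of lineage composition in the values of Dnmt3a, Tet2, Sox4, Npm1 and Myc was not tested. Of 25 housekeeping genes, 22 were in the table, with a median log2 ratio of -0.06.

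The low ratios of Tet2 and Dnmt3a did not extend to most neighbouring genes. No member had the same values as a neighbour, which would point to a shared probe. Ppa2, 85.4 kb from Tet2, held 21 reads in tg and 41 in WT, a ratio of 0.969 (0.544 to 1.68). Ints12 and Gstcd, 353 and 372 kb away and with identical values, had a ratio of 0.884 (0.619 to 1.25). Within 500 kb of Dnmt3a lie 9 other genes of the table. The nearest, Dtnb at 24.2 kb, held 15 reads in tg and 32 in WT (0.887, 0.446 to 1.69). On the far side Dnajc27 at 168 kb had a ratio of 1.26 (0.593 to 2.60) and Cenpo at 282 kb 1.60 (0.920 to 2.75). Asxl2, itself a leukaemia gene, lies 299 kb away with 0.739 (0.446 to 1.19). Rab10, at 496 kb, was 2.93-fold higher in tg (1.83 to 4.76), whereas Ncoa1, at 333 kb, was 3.37-fold lower (1.59 to 8.22).

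Sox4 had 2 neighbours within 500 kb, in opposite directions. The long non-coding gene 2610307P16Rik, 63.3 kb away and named after its values were seen, held 0 reads in tg and 10 in WT. With the tg level set at a floor of 3 reads, 18.3 scaled reads, it was 1.76-fold lower, a value that depends on the floor. The counting interval of the fold reaches down to 1.19-fold lower. Cdkal1, at 238 kb, was 2.10-fold higher in tg on 20 reads in tg and 18 in WT (1.06 to 4.21). Around Npm1, Fbxw11 had a ratio of 0.700 (0.432 to 1.10) and Kcnip1 1.58 (0.610 to 3.98). No other gene of the table lies within 500 kb of Myc.

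**Figure D4:**
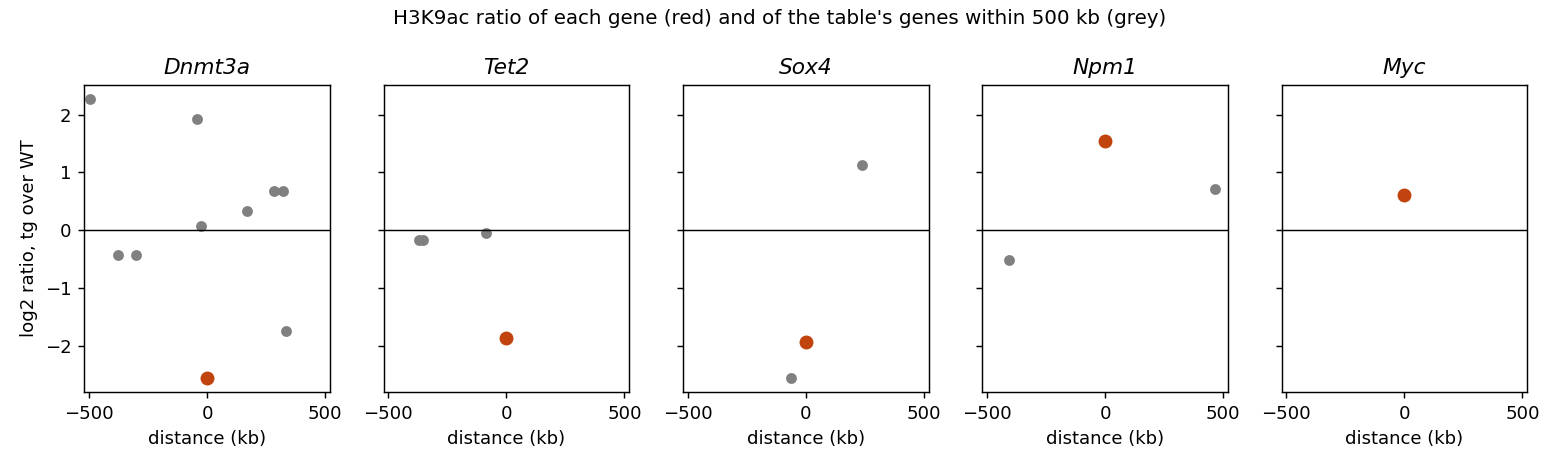
Log2 ratio of H3K9ac, tg over WT, of each leukaemia gene (red, at 0 kb) and of the other genes of the table within 500 kb (grey), against distance along the chromosome in kb. The 3 neighbours of Tet2 lie between -0.18 and -0.05 while Tet2 lies at -1.87, and Dnmt3a lies below all 9 of its neighbours; the panel of Myc has no neighbour.

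Genes with the most similar pair of levels were found by the distance between log2 values over the 2 libraries, among genes with the same number of probes. With 2 libraries, many genes share nearly the same values, and likeness says little more than level. Atp2b1, a plasma membrane calcium pump gene, had exactly the counts of Tet2, followed by the AP-1 gene Jun with 14 reads in tg and 109 in WT and the small GTPase gene Rhob with 16 in tg and 96 in WT. Dnmt3a was most like Lrrc58 (4 reads in tg, 36 in WT), Mtap4 (5 reads in tg, 39 in WT) and Ahnak (4 reads in tg, 42 in WT). Sox4 had no close match: Cnot6l, Ranbp2 and Zfx were the nearest, at distances of 0.36 to 0.38, with 26 to 28 reads in tg and 131 to 170 in WT. The nearest to Npm1 were Bsdc1, Smurf2 and Tipin, and Rpl13 with its intronic Snord68, and Stk38, had the same counts as Myc.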

How the data were processed

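Per the submitters' processing notes, CASAVA 1.8.2, BWA, SAMtools and FastQC were used with mm10 and GRCm38; for probe placement, duplicate removal and the quantifying program, details were not given in the sources used here. Per the file headers, the authors deposited 9615 genes with their number of probes and, per H3K9ac library, the mean over probes and its standard deviation. Columns were matched to samples by library code. The deposited means are log2 values. In the 7423 genes measured at 1 probe, back-transformed values fell on multiples of a single step in 100% of cases (tolerance 0.01 of a read), taking 0 reads to be entered as 0.9 of a read, and the step gives each library's total. The deposited standard deviation, a score of spread on the log2 scale, was used with the mean to recover reads per probe for genes with up to 4 probes (9492 genes, 98.7%), where a single set of whole numbers matched. The recovery was tested on simulated reads. The intervals were tried only on reads drawn from the counting model they assume, so that trial says nothing about copies or variation between libraries. Each 1-probe gene has at least 9 reads over both libraries, and genes below that do not appear.

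The main value is the difference of the deposited log2 means, tg minus WT. No test between genotypes is possible with 1 library each, and no paired analysis was possible because each genotype has 1 library. Differences were counted from 2-fold upwards, and 0 reads were set against a floor of 3 reads. Members and gene lists were chosen with earlier results of these data known. All 5 members are named; list genes are up to 4 per list with the largest absolute log2 ratio at or above the median level, neighbours the nearest 3 named genes per side within 500 kb, and like genes the nearest 3. Listed genes were matched by symbol or, where absent, by a RefSeq synonym (GRCm38.p6), and promoter sequences are from RefSeq. Python 3.11.15, NumPy 2.4.6, pandas 2.3.3, SciPy 1.17.1 and Matplotlib 3.10.9 were used.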

Additional observations from a re-analysis of the deposited data

How the results depend on the processing

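The log2 ratios of all 5 genes kept their sign under each of the 6 alternatives run (reads summed over probes, the tallest probe of each library, centring on all genes, on housekeeping genes or on the 2406 genes of highest level, and 0.5 of a read for 0 reads). Much of this is by construction: Tet2, Sox4 and Myc have 1 probe, so that summed and tallest-probe values equal the deposited ones, no member has 0 reads, and each centring shifts every gene alike. The ratios ranged from -2.61 to -2.35 for Dnmt3a, -1.92 to -1.82 for Tet2, -1.99 to -1.88 for Sox4, 0.58 to 1.60 for Npm1 and 0.56 to 0.66 for Myc. Npm1 depended on how its probes were combined: with the tallest probe of each library its log2 ratio was 0.58, and 0 of the 5 genes were then at least 2-fold higher in tg. The count of higher genes was 2 with a 1.5-fold rule, which adds Myc, and 0 with a 3-fold rule, while 3 genes were lower under every alternative. Over genes at or above the median level, 493 were at least 2-fold higher and 519 lower in tg, against 1586 and 1522 in the whole table. The first set holds fewer genes, so these counts do not compare as shares. The centring shifts lay between -0.06 and 0.05 on the log2 scale. No paired analysis was possible because each genotype has 1 library, and leaving out a library leaves no comparison. Depth limits Dnmt3a most, with 4 reads in tg.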
